A study of Mus musculus with 12 samples.

Results

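The genes described are 53 ligands, receptors, inhibitors and targets of Wnt signalling, taken by name from a table of 24279 genes measured by RNA sequencing in primary mouse embryonic fibroblasts, the connective tissue cells that grow out of a dissociated embryo. They comprise 9 Wnt ligands, 2 proteins that lipidate and export them, 12 receptors and co-receptors, 8 genes of the R-spondin module, 10 genes of antagonists (the Dkk receptor Kremen1 among them), 4 intracellular transducers and 8 transcriptional targets or feedback regulators. All 53 were in the table, and 52 had enough counts to be tested. The exception was Sfrp5, a secreted Frizzled-related antagonist with 17 counts over all 12 libraries.

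The cells were isolated at embryonic day 12.5 from F3 mice and fall into 4 groups of 3 libraries of polyadenylated RNA. Fortified mutant cells were homozygous for Rsg1L3P, an allele of a gene needed to build primary cilia, came from mice fed 10 ppm folic acid and were grown in medium with 3600 ng/mL folic acid. Fortified wild type cells had the same diet and medium. Moderate mutant cells carried Rsg1L3P/L3P and moderate wild type cells did not, and both came from mice fed 2 ppm folic acid and were grown in 225 ng/mL. The diet of the mice and the medium of the cells were raised at the same time. What each did cannot be told apart. Below, "folic acid level" stands for both. Whether libraries of 1 group are from different embryos or litters is not in the labels, so the p values measure the spread between libraries, whatever its source.

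Wnt proteins are secreted lipoproteins that bind Frizzled receptors together with Lrp5 or Lrp6. In the canonical branch this stops the destruction of beta-catenin, which then activates target genes with TCF and LEF factors, whereas Wnt5a and some other ligands mainly signal without beta-catenin through Ror and Frizzled receptors. R-spondins, bound by Lgr receptors, keep the ligases Znrf3 and Rnf43 from removing Frizzled proteins from the cell surface. In the embryo the pathway patterns the axis, the limbs and the neural tube, and in fibroblasts it acts on growth and matrix production.

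The libraries held 39339190 to 48475963 estimated counts, and 15186 genes were tested. Fibroblast markers bore out the cell type: 10 of 10 were expressed and tested, with a summed level of 8520 to 10700 TPM (a transcript level corrected for length, which allows genes to be compared) in fortified mutant, 13500 to 19100 in fortified wild type, 11300 to 12000 in moderate mutant and 6260 to 12400 in moderate wild type. Markers of other cell types were present at lower levels. The 12 skeletal muscle markers, all tested, summed to 1180 to 4960, 741 to 2490, 2730 to 3490 and 1600 to 4460 TPM in the same groups. The 10 neuronal ones summed to 54.1 to 207, 65.4 to 95.8, 68.0 to 93.7 and 39.0 to 282 TPM, and no marker of either list was at 0 throughout. The highest neuronal sum was that of moderate wild type library 1, and the next those of fortified mutant libraries 2 and 3. Xist was present in all 6 mutant libraries but only in 2 of the wild type ones (library 1 at each folic acid level), so the sex make-up of the libraries differed between genotypes. Fortified wild type library 2 held almost no Xist (9 counts) and no Y-linked transcripts (0 counts), so its sex cannot be told from these genes. Both wild type groups hold libraries with Xist and libraries with Y-linked transcripts, which cannot be repeats of 1 embryo. The mutant libraries give no such sign either way.

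Promoter sequence is shown for 4 members on which the results below turn: Fzd7, Dkk2 and Wnt16, which changed with folic acid, and Sp5, a direct target of beta-catenin in mouse cells. The windows are those of RefSeq on GRCm38.p6 and run 250 bases before to 50 after the annotated start. Capitals mark CTTTGA, the core that TCF and LEF factors recognise, searched on both strands. The Fzd7 window is chr1:59481897-59482196, the Dkk2 window chr3:132085042-132085341, the Wnt16 window chr6:22287977-22288276 and the Sp5 window chr2:70474673-70474972, all on the plus strand.
Fzd7: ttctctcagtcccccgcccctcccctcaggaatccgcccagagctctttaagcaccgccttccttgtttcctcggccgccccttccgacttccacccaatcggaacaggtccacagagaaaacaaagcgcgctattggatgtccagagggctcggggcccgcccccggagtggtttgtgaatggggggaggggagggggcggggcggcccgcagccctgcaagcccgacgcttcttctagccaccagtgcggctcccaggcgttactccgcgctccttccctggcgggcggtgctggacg
Dkk2: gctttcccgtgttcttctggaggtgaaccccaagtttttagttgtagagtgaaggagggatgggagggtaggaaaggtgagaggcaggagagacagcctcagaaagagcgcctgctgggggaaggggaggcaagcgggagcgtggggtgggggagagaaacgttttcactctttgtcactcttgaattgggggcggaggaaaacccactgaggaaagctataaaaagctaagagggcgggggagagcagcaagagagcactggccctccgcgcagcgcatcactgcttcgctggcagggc
Wnt16: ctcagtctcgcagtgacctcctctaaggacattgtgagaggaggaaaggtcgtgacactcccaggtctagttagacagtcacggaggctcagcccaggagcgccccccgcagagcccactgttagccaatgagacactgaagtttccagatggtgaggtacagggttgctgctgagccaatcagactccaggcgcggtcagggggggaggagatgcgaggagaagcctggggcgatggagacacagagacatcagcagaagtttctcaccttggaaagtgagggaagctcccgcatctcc
Sp5: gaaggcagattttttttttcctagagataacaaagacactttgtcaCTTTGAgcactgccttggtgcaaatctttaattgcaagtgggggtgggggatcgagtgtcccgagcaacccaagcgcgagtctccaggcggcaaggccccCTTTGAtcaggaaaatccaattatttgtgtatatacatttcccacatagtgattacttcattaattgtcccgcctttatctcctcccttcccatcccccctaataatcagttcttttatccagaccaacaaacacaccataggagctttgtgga
The core was found 2 times in the Sp5 window and 0 times in the other 3. Windows were given for 34 of the 53 members, 44 windows in all. Of these, 7 held the core (15.9%), against 16% of all 32851 windows, so the members' promoters held it no more often than promoters at large. They were richer in CG dinucleotides, with a median of 22.5 per window against 7 over all windows. Among the printed windows Fzd7 held 24 CG, Dkk2 11, Wnt16 10 and Sp5 6.

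Levels between genes are compared in TPM. The members spanned a wide range (mean over the 12 libraries), from 465 TPM for Ctnnb1, which encodes beta-catenin, and 255 TPM for Wls, the carrier that takes Wnt proteins to the cell surface, down to 0.181 TPM for Sp5 and 0.0371 TPM for Sfrp5. Among the ligands Wnt5a stood first at 50.3 TPM, followed by Wnt16 at 27.6, Wnt9a at 14.1 and Wnt11 at 10.6. Wnt10b, at 0.437 TPM, was the lowest. The main Frizzled receptors were Fzd2 (87.8 TPM), Fzd7 (73.9) and Fzd1 (63.1), and these 3 made up 72.0 to 84.6% of the summed Frizzled transcripts in every library. The co-receptors Lrp5 and Lrp6 were at 35.9 and 34.4 TPM. Secreted Frizzled-related proteins led the antagonists (Sfrp2 at 59.6 and Sfrp1 at 58.2 TPM), and Rspo3, at 42.2 TPM, led the R-spondins. Of the Lgr receptors Lgr4 was at 21.7, Lgr5 at 3.97 and Lgr6 at 1.87 TPM. Among the targets and feedback genes Apcdd1 averaged 17.1, Nkd2 14, Nkd1 11.9, Axin2 5.34, Lef1 3.63, Tcf7 3.07, Notum 0.746 and Sp5 0.181 TPM.

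**Figure D1:**
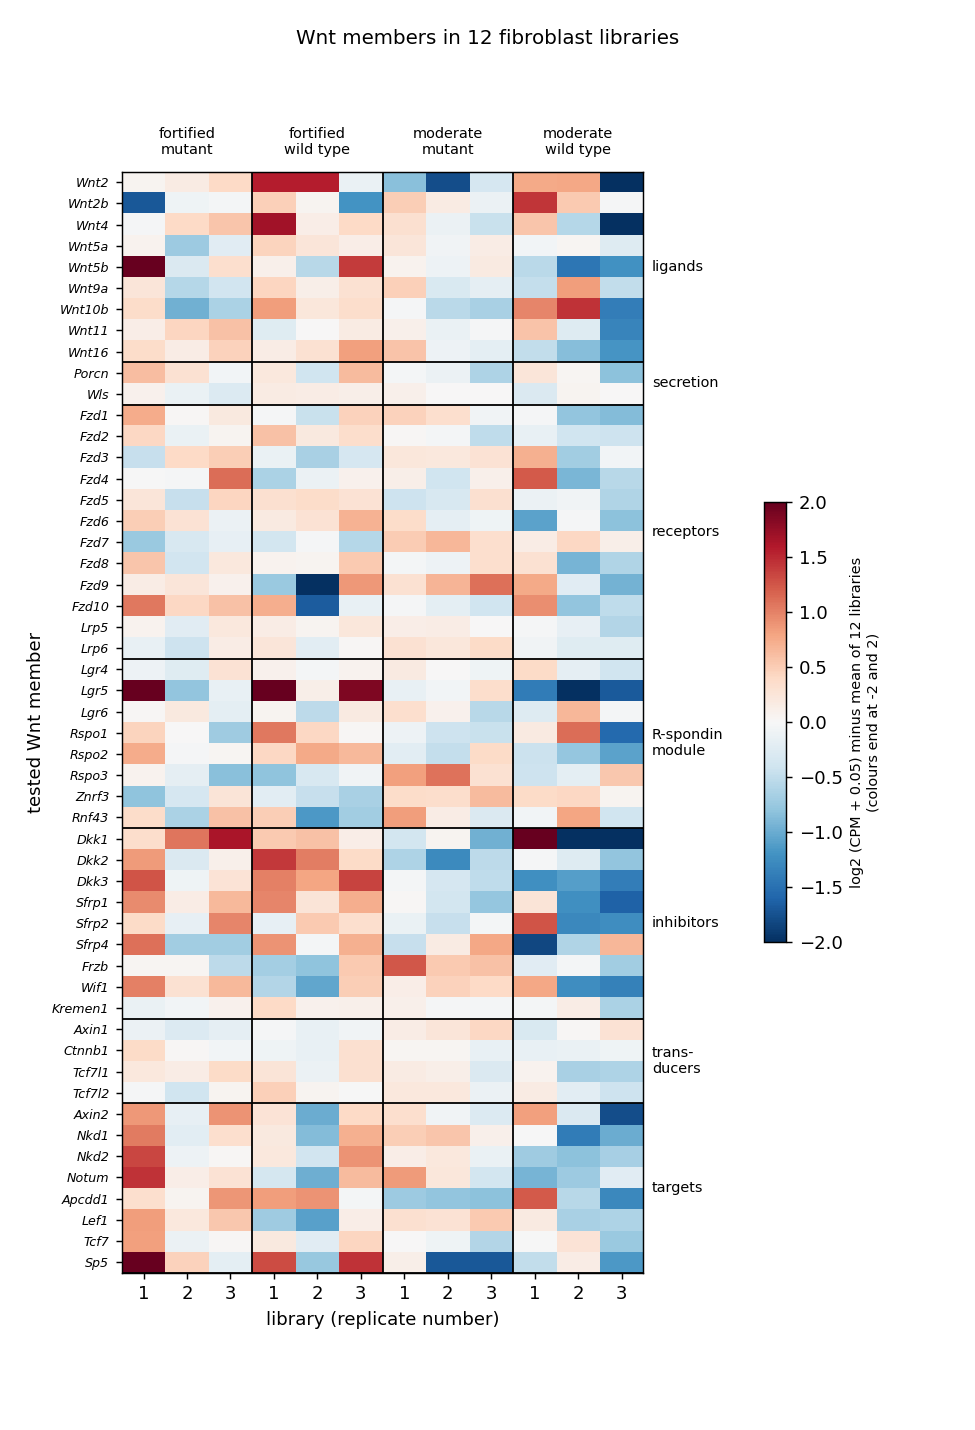
Level of the 52 tested Wnt members (rows, grouped by role) in the 12 libraries (columns), as log2(CPM + 0.05) minus the gene's mean over all libraries, with colours ending at -2 and 2. Moderate wild type library 3 is the lowest of the 12 for 21 members and the highest for 0.

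The main contrast was between folic acid levels. Averaged over both genotypes, 10 of 52 members changed between fortified and moderate cells, 7 higher and 3 lower, by edgeR's quasi-likelihood test with Benjamini-Hochberg adjustment over 15186 genes. The count was 5 without fortified wild type library 3, 6 without moderate mutant library 2 or 3, and 17 without moderate wild type library 1, where 9.81, 9.82, 9.34 and 26.5% of all genes were called. The members that rose were Wnt16, Fzd2, Lgr5, Rspo2, Dkk2, Dkk3 and Sfrp1, and those that fell were Fzd7, Rspo3 and Znrf3. Over all tested genes 17.8% were called, 8.9% higher and 8.86% lower, so the members' share, 19.2%, was near the background. The median log2 fold change of the members was 0.32, against 0.00 over all genes, with 38 positive and 14 negative. On log2(TPM + 1) the same medians were 0.10 and -0.15. In bulk RNA fewer cells of a type and less RNA per cell cannot be told apart, here or in any comparison below.

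Taken within each genotype, the same contrast called 1 member each. In mutant cells this was Fzd7, lower, where 6.93% of all genes were called, 4.19% higher and 2.74% lower, and 11 members (21.2%) had an unadjusted p under 0.05, against 25.6% of all genes. In wild type cells it was Dkk3, higher, 1 of only 4 genes called in all (0.0263%), and 14 members (26.9%) had an unadjusted p under 0.05, against 19.6% of all genes. DESeq2 called 5 members in mutant cells, where it called 15.9% of all genes, and 8 in wild type cells, where it called 7.88%. The fortified and moderate libraries did not overlap for 14 members in mutant cells, 7 higher and 7 lower, against 38.2% of all genes (19.6% higher and 18.5% lower). In wild type cells they did not overlap for 14 members, 12 higher and 2 lower, against 20.6% of all genes (11% higher and 9.67% lower). Fzd7, Znrf3 and Dkk2 were apart in the same direction in both genotypes, for which the share of all genes was not computed. Only for Fzd7 did all 6 fortified libraries lie apart from all 6 moderate ones, as did those of 6.37% of all genes (2.77% higher and 3.6% lower). The interaction of genotype and folic acid called 0 members by edgeR and 0 by DESeq2. Of all genes edgeR called 0% and DESeq2 0.0527%. By edgeR 6 members (11.5%) had an unadjusted p under 0.05, against 6.68% of all genes. A difference between the genotypes in their response was thus not shown for any single member.

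**Figure D2:**
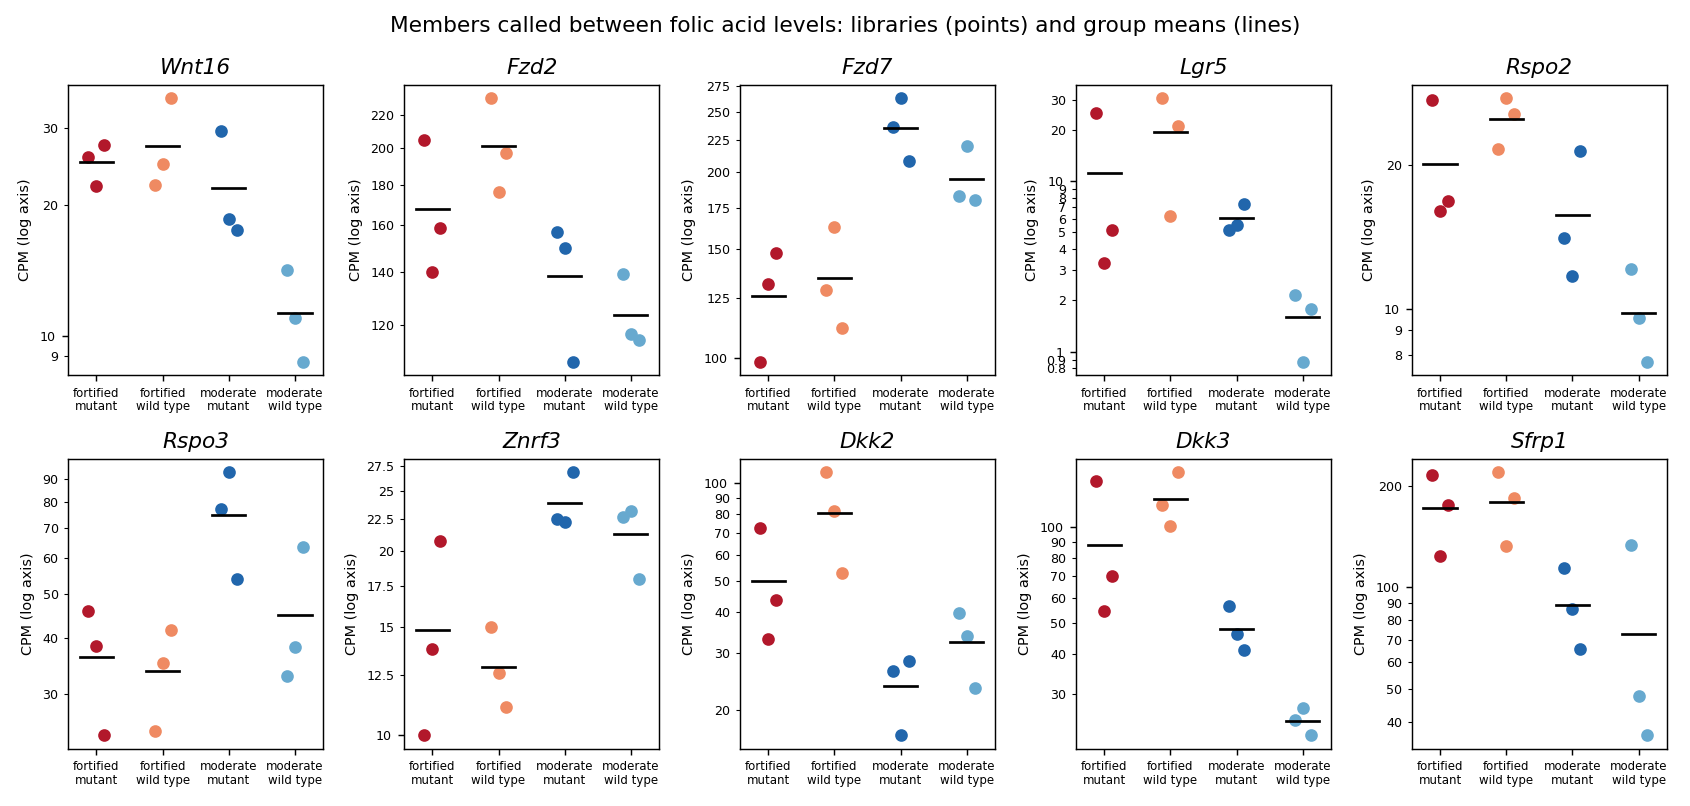
CPM (log axis) of the 10 members called between folic acid levels over both genotypes, 1 point per library and a line at each group mean. Only for Fzd7 do all 6 fortified libraries, 98.7 to 163 CPM, lie apart from the 6 moderate ones, 180 to 263 CPM.

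Among the ligands, 1 of 9 was called (11.1%, against 17.8% of all genes), Wnt16, which acts in bone, joints and blood stem cell formation. Values between conditions are given in CPM, the count of a gene relative to the TMM-scaled total of its library. Wnt16 had 25.8, 22.1 and 27.5 CPM in fortified mutant and 22.2, 24.8 and 35.2 CPM in fortified wild type, against 29.6, 18.6 and 17.5 CPM in moderate mutant and 14.2, 11.0 and 8.74 CPM in moderate wild type. The moderate wild type libraries were the 3 lowest, and the other groups overlapped. Over both genotypes the log2 fold change was 0.74 ± 0.18 (SE; edgeR adjusted p = 0.0207). The call was lost without moderate mutant library 2 (0.0559), moderate mutant library 3 (0.0555) or fortified wild type library 3 (0.0594), these being edgeR adjusted p values, and in 3 of the other alternatives. It was 0.20 in mutant cells, -0.10 there on log2(TPM + 1), and 1.28 ± 0.26 in wild type cells (edgeR adjusted p = 0.0607).

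Wnt5a, a ligand that mostly works without beta-catenin and drives limb and axis outgrowth, had 108, 62.6 and 88.5 CPM in fortified mutant and 141, 122 and 113 CPM in fortified wild type, against 122, 98.5 and 115 CPM in moderate mutant and 99.2, 106 and 86.7 CPM in moderate wild type. Its fortified over moderate log2 fold change was -0.37 ± 0.19 in mutant cells (edgeR adjusted p = 0.239) and 0.37 in wild type cells, where the 3 fortified libraries lay above the 3 moderate ones. The other 7 ligands did not pass. Wnt5b, a close relative of Wnt5a, had the largest log2 fold change of them, 1.29 ± 0.44 (edgeR adjusted p = 0.0606), and much of its fortified mean came from single libraries, with 14.0 CPM in fortified mutant library 1 and 8.95 CPM in fortified wild type library 3 while the rest of the 12 lay between 1.21 and 4.28 CPM. Wnt2 had means of 1.56 and 3.13 CPM in fortified mutant and fortified wild type, against 0.712 and 1.63 CPM in moderate mutant and moderate wild type. The averaged log2 fold changes of Wnt4 and Wnt2b were 0.84 and -0.74, and those of Wnt9a, Wnt10b and Wnt11 lay between -0.09 and 0.27. Neither of the 2 secretion genes was called. Wls had 350, 302 and 274 CPM in fortified mutant and 371, 366 and 357 CPM in fortified wild type, against 353, 333 and 331 CPM in moderate mutant and 271, 345 and 332 CPM in moderate wild type. Porcn, the acyltransferase that attaches the lipid to Wnt proteins, had 7.97, 6.41 and 4.99 CPM in fortified mutant and 6.00, 3.90 and 8.01 CPM in fortified wild type, against 5.00, 4.76 and 3.35 CPM in moderate mutant and 6.12, 5.30 and 2.91 CPM in moderate wild type. The groups of Porcn overlapped in both genotypes.

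Of the 12 receptors 2 were called (16.7%, against 17.8% of all genes), and they went in opposite directions. Fzd7 is a Frizzled used by mesoderm and stem cells in both branches of the pathway (gene at chromosome 1, 59482424 to 59486955, plus strand of GRCm38). It had 98.7, 132 and 148 CPM in fortified mutant and 129, 163 and 112 CPM in fortified wild type, against 236, 263 and 208 CPM in moderate mutant and 183, 220 and 180 CPM in moderate wild type. Every fortified library was below every moderate one. Over both genotypes its log2 fold change was -0.71 ± 0.13, a 1.64-fold lower level (edgeR adjusted p = 0.00787). It was -0.90 ± 0.19 in mutant cells (edgeR adjusted p = 0.0261; 0.069 without fortified mutant library 1 and 0.109 without moderate mutant library 2) and -0.53 ± 0.19 in wild type cells (edgeR adjusted p = 0.162).

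Fzd2, a Frizzled that binds Wnt5a among other ligands, had 205, 140 and 159 CPM in fortified mutant and 231, 176 and 197 CPM in fortified wild type, against 157, 150 and 108 CPM in moderate mutant and 139, 117 and 115 CPM in moderate wild type. In wild type cells the groups were apart, and in mutant cells they overlapped. For Fzd2 the averaged log2 fold change was 0.49 ± 0.14 (edgeR adjusted p = 0.0292), with 0.28 in mutant cells, which became -0.05 on log2(TPM + 1), and 0.70 in wild type cells. The call was lost without any 1 of 7 libraries, with adjusted p values up to 0.0722.

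The make-up of the Frizzled transcripts, in TPM, is shown by these receptors' shares of the sum. Fzd7 made up 12.9, 22.2 and 20.7% of summed Frizzled TPM in fortified mutant and 18.5, 26.2 and 15.3% in fortified wild type, against 30.2, 34.4 and 32.5% in moderate mutant and 25.9, 40.3 and 36.1% in moderate wild type. The share of Fzd2 was 29.7 to 36.0% in fortified mutant and 36.0 to 44.5% in fortified wild type, against 22.5 to 27.0% in moderate mutant and 26.3 to 31.0% in moderate wild type. Within mutant cells both shares were apart between folic acid levels. Within wild type cells the Fzd2 shares were apart, and the Fzd7 share of fortified library 2, 26.2%, lay just above that of moderate library 1, 25.9%. In moderate wild type library 1 Fzd4 took a larger part than in the other moderate libraries.

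**Figure D3:**
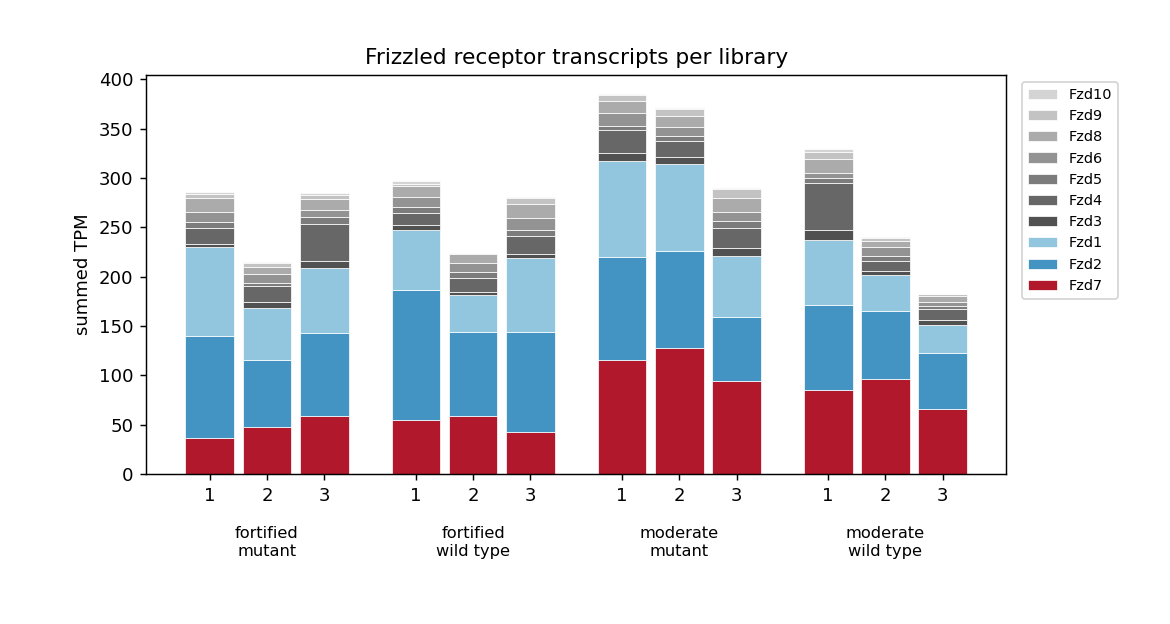
Summed TPM of the 10 Frizzled receptor genes in each library, stacked by gene. Fzd7 (red) takes 12.9 to 26.2% of the sum in the 6 fortified libraries and 25.9 to 40.3% in the 6 moderate ones.

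The other receptors did not pass. Lrp6, the co-receptor that recruits Axin when Wnt binds, had 144, 119 and 176 CPM in fortified mutant and 188, 138 and 162 CPM in fortified wild type, against 196, 186 and 208 CPM in moderate mutant and 151, 135 and 134 CPM in moderate wild type. Its moderate mutant libraries were above those of fortified mutant and of moderate wild type. Fzd3, which acts in axon guidance and planar cell polarity, had 26.7, 48.5 and 51.8 CPM in fortified mutant and 33.5, 23.4 and 28.9 CPM in fortified wild type, against 42.7, 42.4 and 44.8 CPM in moderate mutant and 59.8, 22.7 and 35.4 CPM in moderate wild type, with overlap in every comparison. Fzd6, a planar polarity receptor, came nearest to a call of the remaining ones, with an averaged log2 fold change of 0.58 ± 0.20 (edgeR adjusted p = 0.0695). Fzd1, Fzd4, Fzd5, Fzd8, Fzd9, Fzd10 and Lrp5 had averaged log2 fold changes between -0.40 and 0.39.

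In the R-spondin module 4 of 8 members were called (50%, against 17.8% of all genes), 2 higher and 2 lower, with a median log2 fold change of -0.05. Rspo3, the most abundant R-spondin here and a vascular and limb factor in the mouse, had 45.8, 38.4 and 24.3 CPM in fortified mutant and 24.9, 35.1 and 41.5 CPM in fortified wild type, against 76.9, 93.1 and 53.8 CPM in moderate mutant and 32.9, 38.2 and 63.4 CPM in moderate wild type. The moderate mutant libraries stood above those of fortified mutant, and in wild type cells the groups overlapped. Rspo3 had an averaged log2 fold change of -0.73 ± 0.22 (edgeR adjusted p = 0.0429), and it was -1.05 ± 0.32 in mutant cells (edgeR adjusted p = 0.0659) and -0.41 in wild type cells. This was the weakest of the 10 calls: it was lost when any 1 of 9 libraries was left out, with adjusted p values up to 0.104.

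Rspo2, an R-spondin of limb and lung development, moved the other way. It had 27.5, 16 and 16.8 CPM in fortified mutant and 21.7, 27.7 and 25.7 CPM in fortified wild type, against 14.1, 11.7 and 21.4 CPM in moderate mutant and 12.1, 9.56 and 7.73 CPM in moderate wild type. Here the wild type groups were apart and the mutant groups overlapped. Its averaged log2 fold change was 0.85 ± 0.20 (edgeR adjusted p = 0.0167), from 0.35 in mutant cells and 1.35 ± 0.29 in wild type cells (edgeR adjusted p = 0.0655). Lgr5, an R-spondin receptor and a Wnt target that marks stem cells in adult tissues, had 24.9, 3.32 and 5.19 CPM in fortified mutant and 30.6, 6.26 and 21.0 CPM in fortified wild type, against 5.20, 5.55 and 7.35 CPM in moderate mutant and 2.16, 0.874 and 1.77 CPM in moderate wild type. The 3 fortified libraries above 20 CPM stood far from the others, 1 of them mutant. An averaged log2 fold change of 2.24 ± 0.52 (edgeR adjusted p = 0.0165) combined 3.58 ± 0.78 in wild type cells with 0.89 in mutant cells, and the mutant value became -0.50 without fortified mutant library 1, which left the averaged value at 1.54, and -0.25 by limma-voom with quality weights.

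Znrf3, a ligase that removes Frizzled receptors and is itself a Wnt target, had 9.97, 13.8 and 20.7 CPM in fortified mutant and 15, 12.6 and 11.1 CPM in fortified wild type, against 22.5, 22.3 and 26.9 CPM in moderate mutant and 22.7, 23.2 and 18.0 CPM in moderate wild type. Within each genotype the fortified libraries were below the moderate ones, with log2 fold changes of -0.69 in mutant and -0.72 in wild type cells and -0.71 ± 0.18 over both (edgeR adjusted p = 0.0206). Lgr4, the main Lgr receptor of these cells, had 50.2, 45.6 and 65.9 CPM in fortified mutant and 57.3, 52.3 and 56.6 CPM in fortified wild type, against 61.3, 54.4 and 50.6 CPM in moderate mutant and 70.5, 47.6 and 41.0 CPM in moderate wild type, with an averaged log2 fold change of 0.01. Lgr6, Rspo1 and Rnf43, the paralog of Znrf3, were low (mean 1.87, 1.28 and 0.295 TPM) and had averaged log2 fold changes of -0.12, 0.30 and -0.32. Summed over the 8 genes, the module came to 60.7 to 84.3 TPM in fortified mutant and 66.8 to 82.5 TPM in fortified wild type, against 101 to 141 TPM in moderate mutant and 74.2 to 82.9 TPM in moderate wild type. The moderate mutant sums lay above all the others, and Rspo3 was the most abundant gene in them. Moderate mutant also had the highest mean summed TPM of ligands, secretion genes, receptors and transducers, but not of antagonists or targets. On log2(TPM + 1) the median of all genes was itself -0.23 for fortified over moderate in mutant cells. It was 0.12 for mutant over wild type at moderate folic acid.

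Of the 9 tested antagonist genes 3 were called (33.3%, against 17.8% of all genes), all higher in fortified cells, as were 8.9% of all genes. A positive averaged log2 fold change was found for 8 of 9 (7 of 9 on log2(TPM + 1)), against 50% of all genes. The antagonists' median was 0.41. Dkk3, a secreted Dickkopf family protein with a disputed effect on Wnt signalling, showed the smallest p of all members. It had 139, 54.7 and 70.1 CPM in fortified mutant and 117, 101 and 149 CPM in fortified wild type, against 56.7, 46.2 and 41.1 CPM in moderate mutant and 24.8, 27.1 and 22.2 CPM in moderate wild type. All 3 fortified wild type libraries were above all 3 moderate ones, whereas in mutant cells fortified library 2 lay just inside the moderate range. Averaged over the genotypes, the log2 fold change was 1.59 ± 0.21, a 3.01-fold higher level (edgeR adjusted p = 0.00269). In wild type cells it was 2.31 ± 0.31 (edgeR adjusted p = 0.0328), a call that leave-one-out fits lost for 8 of 12 libraries, with adjusted p values up to 0.159 (without moderate wild type library 3) and log2 fold changes of 2.15 to 2.43. In mutant cells it was 0.88 ± 0.30 (edgeR adjusted p = 0.0905). The interaction, -1.43 ± 0.42, had the smallest p of any member (edgeR unadjusted p = 0.00526, adjusted p = 0.708).

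Dkk2, a Dickkopf that binds Lrp5 and Lrp6, had 72.8, 33.1 and 43.5 CPM in fortified mutant and 108, 81.9 and 52.9 CPM in fortified wild type, against 26.4, 16.7 and 28.2 CPM in moderate mutant and 39.8, 33.7 and 23.3 CPM in moderate wild type. In both genotypes the fortified libraries lay above the moderate ones. The log2 fold change was 1.20 ± 0.24 over both (edgeR adjusted p = 0.00985), 1.07 in mutant and 1.33 in wild type cells. Sfrp1, which binds Wnt proteins and Frizzled receptors, had 216, 124 and 176 CPM in fortified mutant and 220, 133 and 184 CPM in fortified wild type, against 114, 86.2 and 65.5 CPM in moderate mutant and 134, 47.6 and 36.4 CPM in moderate wild type. The groups were apart in mutant cells. In wild type cells moderate library 1, at 134 CPM, lay just above fortified library 2. Averaged, the log2 fold change of Sfrp1 was 1.13 ± 0.30 (edgeR adjusted p = 0.0268; up to 0.071 with 1 library left out). Its paralog Sfrp2 had 64.6, 44.3 and 98.3 CPM in fortified mutant and 44.3, 71.9 and 63.0 CPM in fortified wild type, against 45.4, 36.2 and 48.6 CPM in moderate mutant and 119, 20.3 and 21.1 CPM in moderate wild type. Moderate wild type library 1 held the highest Sfrp2 value of all 12 libraries and the other 2 of its group the lowest.

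Library 1 of moderate wild type stood apart in the same way for Dkk1, the classical Lrp5 and Lrp6 antagonist, with 5.08 CPM against 0.257 and 0.0918 CPM in libraries 2 and 3. Sfrp4, Wif1, a secreted Wnt-binding protein, and Kremen1 had averaged log2 fold changes of 0.39, 0.18 and 0.15. Frzb, a Wnt-binding antagonist of cartilage, had means of 8.82 ± 1.8 CPM in fortified mutant and 8.45 ± 4.7 in fortified wild type, against 17 ± 5.0 in moderate mutant and 7.83 ± 1.7 in moderate wild type (SD, n = 3 each), and was the 1 antagonist with a negative averaged value, -0.42. The 9 cartilage markers, all tested, summed to 123 to 191 TPM in fortified mutant and 99.3 to 142 TPM in fortified wild type, against 169 to 436 TPM in moderate mutant and 62.5 to 258 TPM in moderate wild type, and their part in the values of Frzb was not tested. Of the 10 fibroblast markers 5 were called between folic acid levels (50%, against 17.8% of all genes), all higher in fortified cells. Their median log2 fold change in CPM was 0.97 over both genotypes, 0.33 in mutant and 1.49 in wild type cells. Their summed TPM, another scale, in which Vim alone makes up 32.4%, was lower in all fortified mutant than in all moderate mutant libraries and higher in all fortified wild type than in all moderate wild type libraries. In mutant cells the direction for these markers thus differs between the measures. Their part in the antagonists' values was not tested.

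**Figure D4:**
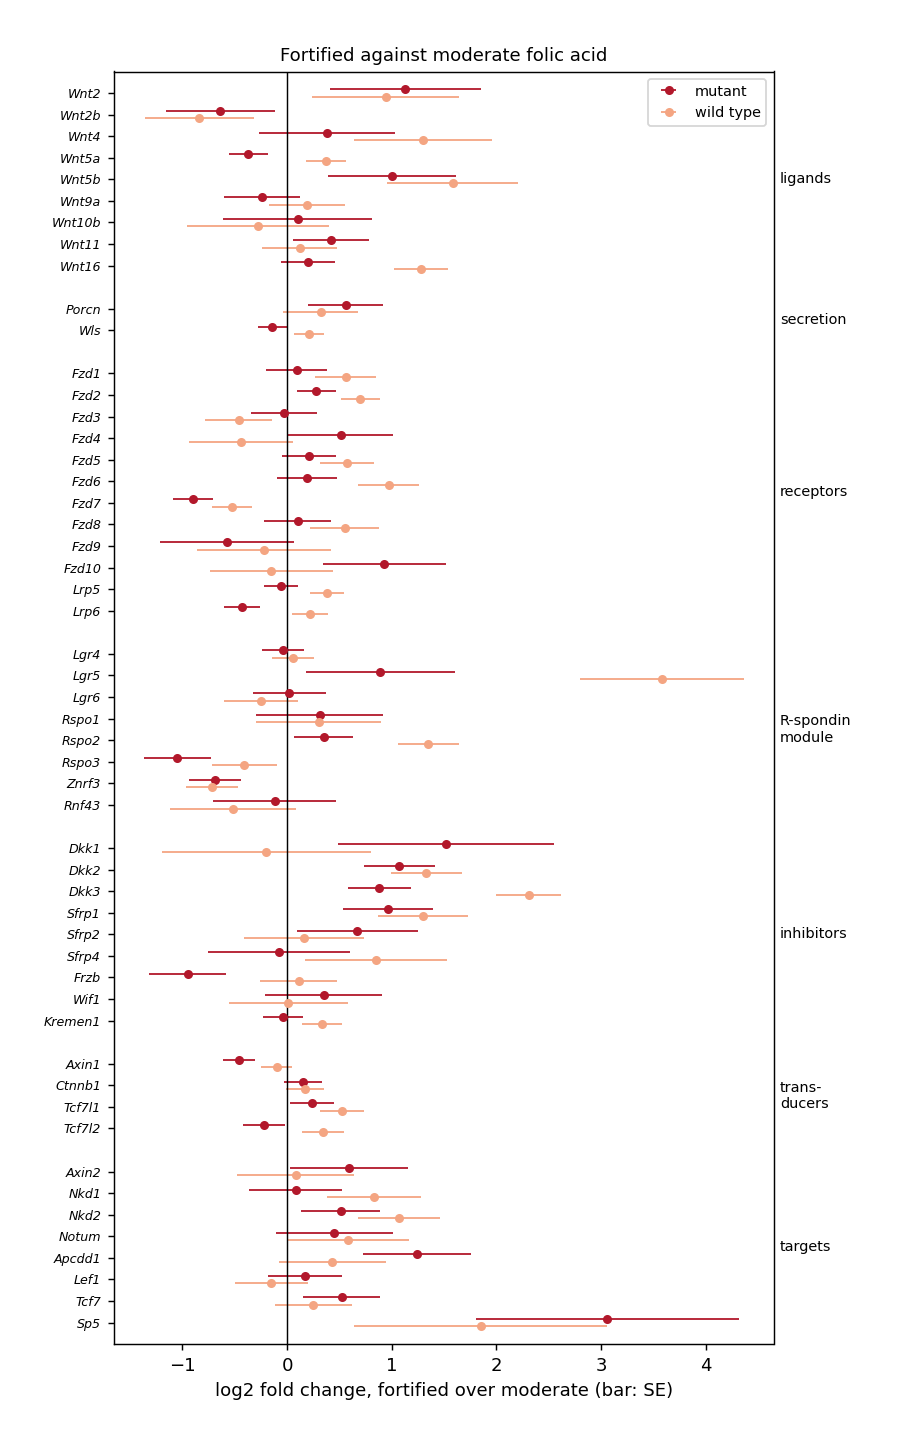
log2 fold change (point) and SE (bar) of fortified over moderate folic acid for each tested member, in mutant and in wild type cells. Fzd7 (-0.90 and -0.53) and Znrf3 (-0.69 and -0.72) lie below 0 in both genotypes, and Dkk2 (1.07 and 1.33) and Dkk3 (0.88 and 2.31) above it.

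None of the 4 transducers and none of the 8 targets or feedback regulators was called between folic acid levels by edgeR, and 2 transducers and 3 targets had an unadjusted p under 0.05 over both genotypes, as did 33.9% of all genes. Over both genotypes DESeq2 called 1 transducer, Axin1, and 1 target, Nkd2, against 26% of all genes (17.8% by edgeR). It also called Axin1 in mutant cells alone, where it called 15.9% of all genes. Ctnnb1 had 1080, 840 and 796 CPM in fortified mutant and 779, 744 and 1030 CPM in fortified wild type, against 852, 851 and 746 CPM in moderate mutant and 743, 752 and 778 CPM in moderate wild type. Tcf7l1, the TCF factor that mostly represses, had 79.9, 77.0 and 90.9 CPM in fortified mutant and 82.8, 63.7 and 86.7 CPM in fortified wild type, against 77.5, 75.6 and 56.9 CPM in moderate mutant and 72.7, 44.4 and 45.2 CPM in moderate wild type. For both genes the fortified and moderate groups overlapped in each genotype.

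Axin1, the scaffold of the complex that degrades beta-catenin, had 61.3, 55.3 and 59.0 CPM in fortified mutant and 65.4, 59.8 and 63.7 CPM in fortified wild type, against 73.8, 78.8 and 88.8 CPM in moderate mutant and 53.7, 67.7 and 81.7 CPM in moderate wild type. The mutant groups were apart, with a log2 fold change of -0.46 ± 0.15 (edgeR adjusted p = 0.0902; called under 7 of 24 alternative settings). Tcf7l2, which activates targets with beta-catenin, had 32.3, 24.8 and 34.2 CPM in fortified mutant and 45.9, 34.2 and 32.8 CPM in fortified wild type, against 37.9, 38.0 and 30.4 CPM in moderate mutant and 36.6, 28.2 and 24.5 CPM in moderate wild type.

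The averaged log2 fold changes of the 8 targets were all positive by edgeR with TMM scaling, with a median of 0.48, and 7 of 8 were with library totals alone or on log2(TPM + 1), where the median was 0.15 and that of all genes -0.15. Sp5 is among these targets. It passed the low-count filter only through fortified libraries, so its positive sign is no support. In a separate list of 14 reported targets, described below, 6 averaged log2 fold changes were positive and 8 negative, with a median of -0.13. Nkd2, which binds Dishevelled and dampens Wnt signalling, had 51.4, 18.8 and 20.5 CPM in fortified mutant and 23.5, 15.6 and 37.7 CPM in fortified wild type, against 22.1, 23.5 and 18.4 CPM in moderate mutant and 12.4, 11.4 and 12.8 CPM in moderate wild type. Of the 8 member targets Nkd2 came nearest to a call, with 0.79 ± 0.27 (edgeR adjusted p = 0.064). Its relative Nkd1 had 46.5, 19.6 and 28.6 CPM in fortified mutant and 26.0, 12.4 and 37.2 CPM in fortified wild type, against 32.0, 33.3 and 24.3 CPM in moderate mutant and 22.6, 8.59 and 11.4 CPM in moderate wild type. For both, fortified mutant library 1 was the highest of the 12.

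Apcdd1, a membrane protein that binds Wnt proteins and Lrp5 and inhibits signalling, had 25.4, 21.0 and 37.4 CPM in fortified mutant and 36.1, 37.7 and 19.6 CPM in fortified wild type, against 12.2, 11.7 and 11.4 CPM in moderate mutant and 47.4, 13.7 and 8.28 CPM in moderate wild type. The mutant groups were apart, at a log2 fold change of 1.24 ± 0.52 (edgeR adjusted p = 0.16). In moderate wild type, library 1 again had the highest value of all. Sp5, whose promoter is shown above, had only 105 counts in all: 42, 8 and 4 in fortified mutant and 16, 2 and 18 in fortified wild type, against 6, 0 and 0 in moderate mutant and 3, 5 and 1 in moderate wild type. Most of its fortified counts came from 3 libraries, and at this depth a fold change would rest on the prior count. Axin2, the most used reporter of canonical signalling, had means of 15.1 ± 5.5 CPM in fortified mutant and 10.0 ± 4.4 in fortified wild type, against 10.0 ± 2.2 in moderate mutant and 9.48 ± 7.4 in moderate wild type (SD, n = 3 each). Its averaged log2 fold change was 0.33 ± 0.39 (edgeR adjusted p = 0.591). Notum and Tcf7 had values of 0.51 and 0.39.

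Between genotypes 0 members were called at either folic acid level or over both, by edgeR or by DESeq2, and edgeR called 0% of all genes. DESeq2 called 0.329% of all genes at moderate folic acid, 0.0395% at fortified and 0.119% over both levels. On simulated data edgeR recovered only 19% of genes changed 2-fold between genotypes at moderate and 19.3% at fortified folic acid. The 0 calls therefore do not show that the genotypes were alike. At moderate folic acid 9 members had an unadjusted p under 0.05 (17.3%, against 7.87% of all genes), at fortified 2 (3.85%, against 3.29%), and over both levels 7 (13.5%, against 4.64%). At moderate folic acid the median log2 fold change of mutant over wild type was 0.18 for the members and -0.05 for all genes, with 37 positive and 15 negative. The mutant libraries lay above the wild type ones for 10 members and below them for 0, against 6.34% and 6.68% of all genes. These 10 were Wnt5b, Wnt16, Lrp5, Lrp6, Lgr5, Dkk3, Frzb, Nkd1, Nkd2 and Lef1.

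For Wnt16 the log2 fold change was 0.96 ± 0.26 and for Dkk3 0.96 ± 0.30, with the CPM values given above (edgeR adjusted p = 0.588 for both). For Lgr5 it was 1.91 ± 0.74, for Frzb 1.12 ± 0.37, for Nkd1 1.07 ± 0.45, for Lrp6 0.49 ± 0.17, for Tcf7l1 0.37 and for Wls 0.10. Moderate wild type library 3 had the lowest value of all 12 libraries for 21 of the 52 members, with a median deviation of -0.64 (log2 CPM) from the members' means. Without it the members' median was 0.12, and without library 1 of that group it was 0.45.

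At fortified folic acid 25 members were positive and 27 negative, with a median of -0.05. The groups were apart for 3 members, 1 higher and 2 lower, against 10.3% of all genes (4.66% higher and 5.62% lower). Wnt5a and Wls were lower in each mutant library, with log2 fold changes of -0.54 ± 0.19 and -0.24 ± 0.14, and Lef1, a TCF family factor and a target of the pathway, was higher. Lef1 had 10.0, 6.47 and 8.13 CPM in fortified mutant, against 3.40, 2.61 and 6.15 CPM in fortified wild type, and 6.97, 6.86 and 8.00 CPM in moderate mutant, against 6.34, 3.55 and 3.63 CPM in moderate wild type. All 6 mutant libraries were above all 6 wild type ones, which held for 1 member and for 0.0988% of all genes (0.0593% higher and 0.0395% lower). The fortified log2 fold change was 1.02 ± 0.35 and the averaged one 0.85 ± 0.25 (edgeR unadjusted p = 0.00531, adjusted p = 0.986). Fortified log2 fold changes were -0.70 for Dkk2, 0.57 for Fzd3, -0.32 for Rspo2 and -0.31 for Tcf7l2, all with an edgeR adjusted p of 0.939. Of the 52 members 20 had a positive value at moderate and a negative one at fortified folic acid, for which the share of all genes was not computed. The genotype comparisons also set 6 libraries with Xist against 2 with it and 4 without, and with a sex-linked score as covariate the members called were again 0. Of the fibroblast, muscle and neuronal markers 0 were called between genotypes by edgeR. At fortified folic acid the median log2 fold change of mutant over wild type was -0.62 for the 10 fibroblast markers (10 negative), 1.27 for the 12 muscle markers (12 positive) and 1.18 for the 10 neuronal markers (10 positive). At moderate folic acid it was 0.51 for the fibroblast markers (8 positive), 0.07 for the muscle markers (7 positive) and -0.45 for the neuronal markers (10 negative). Their part in the members' values was not tested.

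**Figure D5:**
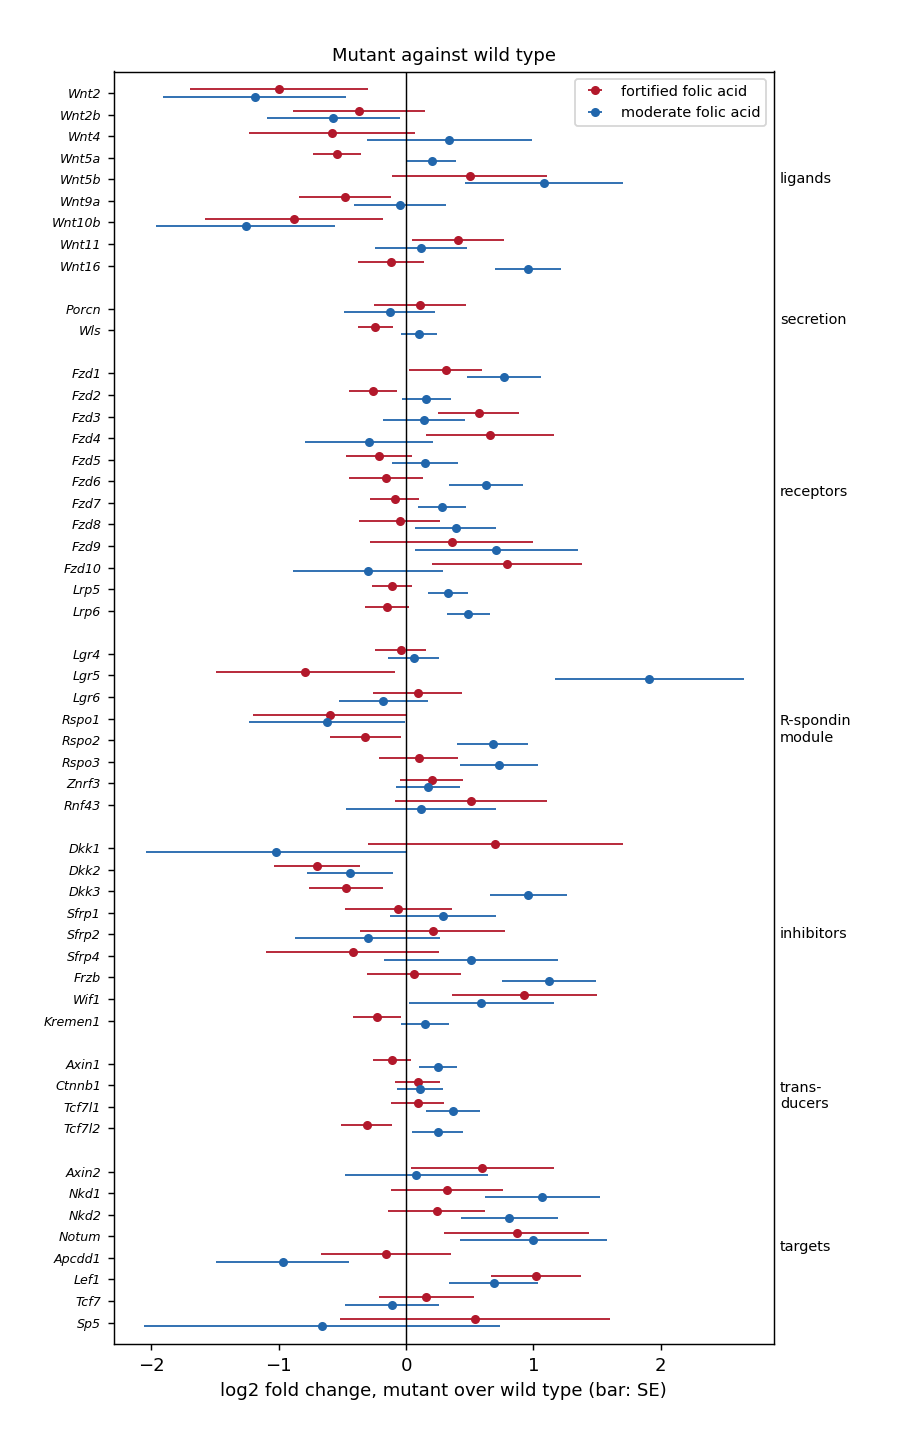
log2 fold change (point) and SE (bar) of mutant over wild type for each tested member, at fortified and at moderate folic acid. None of the 52 passed the adjusted threshold; Lef1 lies at 1.02 and 0.69, and Wnt16 at -0.12 and 0.96.

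Among 74 further genes of the pathway, listed by role, 67 were tested. Between folic acid levels over both genotypes 9 of them were called (13.4%, against 17.8% of all genes), 2 higher and 7 lower. Ror2, a receptor for Wnt5a, rose by 0.63 ± 0.19 (log2; edgeR adjusted p = 0.0414), with 77.1 ± 12 CPM in fortified mutant and 79.1 ± 16 in fortified wild type, against 59 ± 9.4 in moderate mutant and 43.4 ± 18 in moderate wild type (SD, n = 3 each). Dact3, a Dishevelled antagonist, rose by 0.65 ± 0.15 (edgeR adjusted p = 0.015). Gsk3b, the kinase that marks beta-catenin for destruction, fell by 0.58 on the log2 scale (edgeR adjusted p = 0.00701), with 151 ± 21 CPM in fortified mutant and 156 ± 15 in fortified wild type, against 254 ± 13 in moderate mutant and 205 ± 23 in moderate wild type. Tnks, which promotes Axin turnover, Csnk1g1, a kinase of Lrp6, Fbxw11, part of the ligase that degrades beta-catenin, and the corepressor Tle4 also fell, with log2 fold changes of -0.45, -0.51, -0.29 and -0.75.

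Myc, reported as a Wnt target in several cell types, fell by 1.28 on the log2 scale (edgeR adjusted p = 0.0108), with 71.7 ± 14 CPM in fortified mutant and 72.7 ± 27 in fortified wild type, against 198 ± 100 in moderate mutant and 156 ± 53 in moderate wild type (SD, n = 3 each). Wnt10a, a ligand of skin and tooth development, was also called lower, at -2.53 ± 0.74 (edgeR adjusted p = 0.0362). It had 0.0739 ± 0.064 CPM in fortified mutant and 0.0369 ± 0.034 in fortified wild type, against 0.324 ± 0.26 in moderate mutant and 0.312 ± 0.18 in moderate wild type. All these levels are near the floor. Wnt10a passed the low-count filter only through moderate libraries, so its call is no support for a fall. In mutant cells alone Gsk3b, Tnks and Myc were called, all lower (-0.75, -0.62 and -1.46), which is 4.48% of the list against 6.93% of all genes. Of the same list edgeR called 0 in wild type cells alone, with 13 (19.4%) at an unadjusted p under 0.05, against 19.6% of all genes. By list, the averaged calls were 1 of 7 ligands, 1 of 8 receptors and co-receptors, 0 of 7 inhibitors, 6 of 31 transducers and 1 of 14 reported targets. In the inhibitor list the smallest p was that of Bambi, at 0.76 ± 0.25 (edgeR adjusted p = 0.0592). Bambi is a decoy receptor of TGF-beta signalling reported to enhance Wnt signalling, so it is not an inhibitor in the sense of the list's name. Between genotypes 0 of the 67 were called, with the smallest averaged p for Ccnd1, a cell cycle gene, at -0.85 ± 0.26 (edgeR adjusted p = 0.986).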

How the data were processed

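Polyadenylated RNA of 12 libraries was sequenced after trizol and chloroform extraction, with a Tecan Universal Plus mRNA-Seq kit, per the labels' protocols. The authors deposited expected counts per gene, estimated by salmon per the file names, on mm10 per the submitters' processing notes, with its version and annotation not given in the sources used here. They also deposited TPM per gene. Columns were tied to samples by the column number in the labels' descriptions and by genotype and number in the column names; the letters that mark the folic acid level there are not explained.

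Expected counts as deposited by the authors were rounded to integers. filterByExpr (minimum count 10, minimum total 15) kept 15186 of 24279 genes, scaling was by TMM, and edgeR 4.0.16 (glmQLFit, glmQLFTest) in R 4.3.3 fitted 1 mean per group over all 12 libraries, with a common biological coefficient of variation of 0.332. The 7 contrasts were the 4 pairwise ones, 2 averages and an interaction term. P values were adjusted by Benjamini-Hochberg across the 15186 genes, with a threshold of 0.05. SE of a log2 fold change was taken as its absolute value divided by the square root of edgeR's quasi-likelihood F statistic. Groups are called apart, or not overlapping, where the ranges of their libraries did not meet. At this depth counting error is small for all but the lowest members.

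The members, lists and tests were chosen with earlier results of these data known. Values in every library are given for members past the threshold, the 2 most abundant of each role, and the smallest p of each role in each pairwise comparison. Other pathway genes are named if called or of the smallest p of their list. Members such as Frzb, Wnt5b and Dkk1 were singled out after their values were seen. Gene positions are from GENCODE M21 on GRCm38 and promoters from RefSeq on GRCm38.p6.

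Alternatives were DESeq2 1.42.0, limma 3.58.1 on log2(TPM + 1) and log2(TPM + 0.1), limma-voom with quality weights, median-of-ratios scaling, library totals alone, 2 other low-count filters, a replicate block, the compared groups only, a sex-linked score as covariate, leaving out 3 libraries (moderate wild type 1, fortified mutant 2 and 3) and leaving out each library. On simulated data over 15186 genes the test recovered 19% of genes changed 2-fold and 75.3% of those changed 4-fold between folic acid levels in mutant cells, 21.3 and 73% in wild type cells, and 48.3 and 87% over both. Between genotypes it recovered 19 and 66.3% at moderate and 19.3 and 67.7% at fortified folic acid.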

Additional observations from a re-analysis of the deposited data

How the results depend on the processing

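Between genotypes and for the interaction, 0 members were called under every alternative run. Of all genes DESeq2 called 0.0395 to 0.329% in these contrasts, and the other fits called 0%. For the folic acid level, counts of members called in mutant cells, in wild type cells and over both were 1, 1 and 10. Of all genes 6.93, 0.0263 and 17.8% were called there. The counts were 5, 8 and 14 by DESeq2 (all genes 15.9, 7.88 and 26%), 11, 1 and 12 by limma-voom (34.7, 0.112 and 25.3%), 7, 0 and 6 on log2(TPM + 1) (18.5, 0.00659 and 24.6%) and 8, 1 and 9 on log2(TPM + 0.1) (18.5, 0.0856 and 24.6%). They were 1, 0 and 10 with library totals alone (7.8, 0.0132 and 19%) and 4, 1 and 12 with the sex-linked covariate (8.26, 0.0856 and 18.1%). Fits on only the groups compared called 4 and 1 (13.8 and 0.0132%). Leaving out library 1 of moderate wild type with libraries 2 and 3 of fortified mutant, the counts were 4, 12 and 19 (7.5, 8.6 and 26.1%). With 1 library left out they ranged from 0 to 6 in mutant cells, 0 to 10 in wild type cells and 5 to 17 over both. The upper ends came without moderate wild type library 1 (6, 10 and 17, with 13.7, 6.64 and 26.5% of all genes). Without moderate wild type library 3 they were 3, 0 and 8 (10.9, 0.0132 and 15% of all genes). Without fortified mutant library 1 they were 0, 4 and 8 (1.34, 1.73 and 12.5%). The averaged count was 6 without moderate mutant library 2 or 3 (9.82 and 9.34%) and 5 without fortified wild type library 3 (9.81%). In mutant cells the count was 0 without any 1 of moderate mutant 1, 2 and 3 or fortified mutant 2. In these fits only 0, 0, 0.329 and 0.263% of all genes were called. It was 2 without fortified mutant 3 (3.25%). In wild type cells it was 0 without any 1 of the 3 moderate mutant libraries, fortified mutant 3 or the 3 fortified wild type libraries. There 0.00659 to 0.0263% of all genes were called.

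With the replicate block the counts were 1, 2 and 9 (3.68, 0.428 and 15.2%). No sign of pairing by number was seen. Of 18 same-numbered pairs 4 had deviations correlated above 0.1 (median -0.0033), and 3 of 12 libraries correlated best with their own number. Such correlations cannot show that the libraries were unpaired.

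The averaged calls of Dkk2, Dkk3 and Fzd7 held in all 23 alternatives. Rspo2 was lost in 1, Lgr5 and Znrf3 in 2 each, Wnt16 in 6, Sfrp1 in 7, Fzd2 in 10 and Rspo3 in 11. Signs turned for Fzd3 (-0.11) and Rspo2 (0.12) between genotypes at fortified folic acid without the 3 libraries, for Fzd2 (-0.05) and Wnt16 (-0.10) in mutant cells on both TPM scales, and for Lgr5 in mutant cells by limma-voom (-0.25) and without fortified mutant library 1 (-0.50; the highest with 1 library left out was 1.29). On log2(TPM + 1) the median of all genes moved to -0.23 in mutant cells, -0.15 over both genotypes and -0.16 for the interaction, and to 0.12 between genotypes at moderate folic acid. The members' median in mutant cells, 0.19, was -0.10 on log2(TPM + 1) and -0.14 on log2(TPM + 0.1). At moderate folic acid the members' median between genotypes, 0.18, was 0.45 on log2(TPM + 0.1) and 0.48 without the 3 libraries. The causes were not tested. Sp5, Sfrp5, Rnf43, Notum and Wnt10b are limited by depth, as is Wnt10a among the further genes.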
